A study of Mus musculus with 31 samples.

Results

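The 16 Control mice were ranked by the summed level of Drd1 and Adora2a in their basolateral amygdala (BLA) punches, and the 5 highest and 5 lowest mice are described here. These are 10 of the 31 mice sequenced. Levels are given in CPM, a gene's reads per 1000000 reads of the same mouse. Because the mice were chosen by these measured values, the high and low mice are not groups of the study, and every difference between them is given as a description without a test. Tests were made in the 15 CYFIP OE mice, which took no part in the ranking, and between groups given by the sample labels.

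Control mice were wild-type littermates of mice that carry a human CYFIP1 bacterial artificial chromosome (BAC) on a C57BL/6N background, called CYFIP OE, from lines that the labels number 1 and 3. The transgene was introduced by pronuclear injection, so each line carries its own insertion. There were 8 Control mice per line and 8 of each sex, aged 58 to 61 days, and 7 CYFIP OE mice of line 1 and 8 of line 3 (7 males and 8 females), aged 58 to 77 days. The BLA was punched by eye from a 1-mm coronal slice, the left and right punches of a mouse were pooled, and the RNA was read by QuantSeq, which sequences the 3′ end of transcripts. Mice are numbered within each genotype.

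The BLA lies directly beneath the striatum in the coronal plane, with the external capsule, the hippocampus, the central amygdala and the ventricle nearby. Striatal projection neurons are the inhibitory output cells of the striatum, and they fall into direct pathway neurons with the dopamine receptor gene Drd1 and indirect pathway neurons with the adenosine receptor gene Adora2a. Both kinds carry a shared signalling set, in which these receptors set the level of cyclic AMP through Gnal and Adcy5, Pde10a and Pde1b break cyclic nucleotides down, and Ppp1r1b encodes the protein phosphatase inhibitor DARPP-32. In a punch of bulk tissue, fewer cells of a type and less RNA per cell cannot be told apart.

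The high mice, from the highest sum down, were Control mice 14, 6, 4, 11 and 12, with summed levels of 371, 320.5, 315, 309 and 279 CPM. The low mice were Control mice 3, 13, 15, 1 and 2, with 208, 173, 139.7, 65.7 and 19.7 CPM. The mouse just outside the high mice stood at 276 CPM, only just under mouse 12, and the mouse just outside the low mice stood at 224 CPM. The low mice were thus spread widely, with mice 1 and 2 far under the others, and the high mice continued the 6 middle mice without a gap. Drd1 was 244, 209, 232, 229 and 181 CPM in the high mice and 136, 118, 101, 44.6 and 11.1 CPM in the low mice. Adora2a was 127, 112, 82.3, 80.7 and 97.3 CPM in the high mice and 71.7, 54.8, 38.9, 21.1 and 8.64 CPM in the low mice. From here on, values by mouse follow the same order, high mice 14, 6, 4, 11 and 12 and low mice 3, 13, 15, 1 and 2. In the 15 CYFIP OE mice the sum ran from 27.9 through a median of 210.3 to 490.0 CPM, a wider range than in the Control mice.

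**Figure D1:**
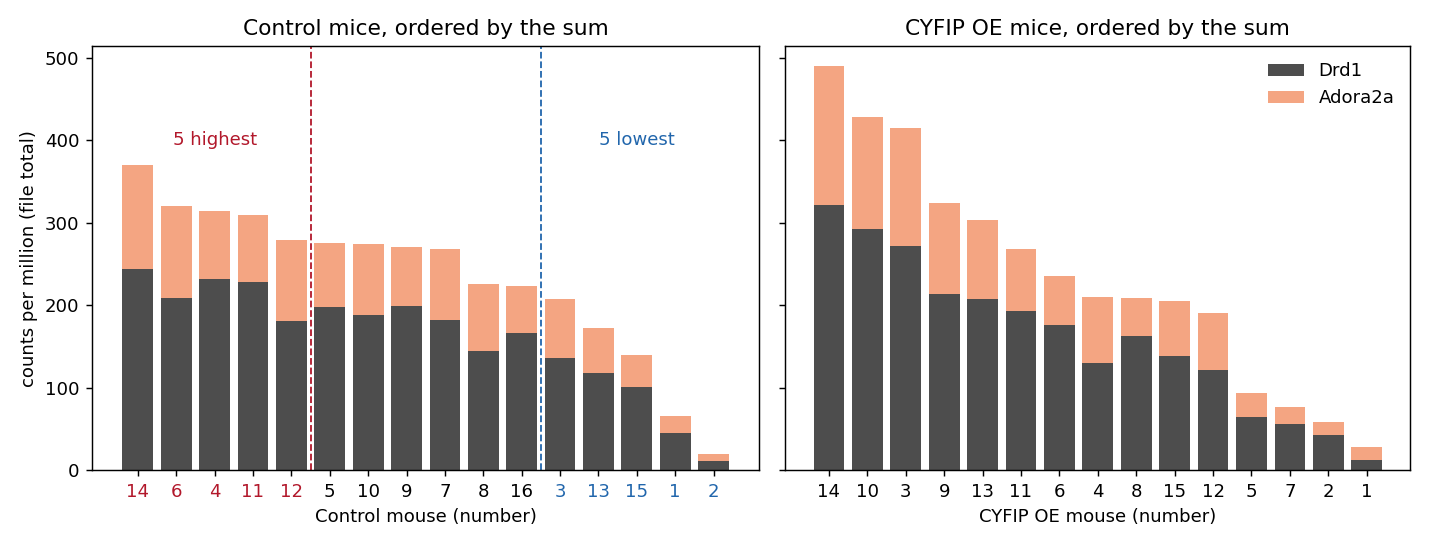
Stacked bars give the CPM of Drd1 (grey) and Adora2a (orange) in each of the 16 Control mice and 15 CYFIP OE mice, ordered by the sum, with dashed lines beside the 5 highest (278.7 to 370.6 CPM) and the 5 lowest (19.7 to 208.0 CPM) Control mice. The 2 lowest Control mice, 1 and 2, stand far under the other 14, and CYFIP OE mice span 27.9 to 490.0 CPM.

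Of the high mice 2 of 5 were of line 3, against 5 of 5 low mice, and 3 of 5 were male in both. All 3 Control mice whose names share the prefix X424 were low mice (1, 2 and 3). Total reads were 6904293 to 8627443 in the high mice and 7185899 to 8685521 in the low mice, and detected genes were 20874 to 22585 and 21313 to 22443. Mitochondrial transcripts took 6.45% to 10.9% of reads in the high mice and 6.62% to 8.61% in the low mice. Akap5 and AY036118, the most abundant genes, together took 17.8% to 28.3% of reads in the high mice and 19.9% to 22.1% in the low mice. Mouse Cyfip1, which does not measure the human transgene directly, had 22.0 to 44.8 CPM in the Control mice and 24.9 to 39.3 CPM in the CYFIP OE mice. CYFIP OE mouse 1, also named X424 and with the lowest sum of its genotype, stood apart from the other libraries, with a connectivity Z-score (how strongly a mouse's expression profile correlates with all others) of -4.80, so results from the CYFIP OE mice are also given without it. Control mouse 1 had the lowest Z-score of the Control mice, -1.24.

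Over 17426 genes other than Drd1 and Adora2a, 136 genes (0.78%) were higher in every high mouse than in any low mouse, and 488 genes (2.8%) were lower, 624 (3.58%) in either direction. The ratio of mean levels, high over low with 0.5 CPM added to each mean, had a median log2 value of -0.18 over all genes, exceeded 1 for 205 genes and was under -1 for 736 genes. TMM scaling, which corrects for a few genes that take many reads, moved that median to -0.01 and the counts to 303 higher and 264 lower, so that 53.4% of these genes were higher in place of 21.8%. Differences are therefore read against the median of all genes, and a direction that depends on the scaling is named where it occurs.

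The genes shared by striatal projection neurons followed the 2 genes of the rule. All 24 genes of this list were measured above the filter on low reads, all 24 had a higher mean in the high mice, and 9 did not overlap between the high and low mice, with none lower. The median log2 ratio of the list was 1.19, against -0.18 over all genes (1.35 against -0.01 with TMM scaling), and 16 of the 24 exceeded 1. Single genes ranged from 0.47 for Dclk3, a kinase gene, to 1.91 for Syndig1l. The 9 genes without overlap, which included Ppp1r1b, Pde10a, Pde1b, Rgs9, Bcl11b, Foxp1, Syndig1l and Sh3rf2, were the same 9 under TMM scaling. Without the 3 low mice named X424 the median of the list was 0.92.

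Ppp1r1b was at 1626, 1439.9, 1491, 1507 and 1063 CPM in the high mice and at 1020.5, 656, 595, 323 and 145 CPM in the low mice, a log2 ratio of 1.38. High mouse 12 and low mouse 3 lay side by side, and the other 4 low mice were far lower. Pde10a was at 257, 182, 395, 312 and 221 CPM in the high mice and at 173, 151, 115, 37.1 and 17.2 CPM in the low mice, so that mouse 4 had the most and mouse 2 the least. In Rgs9, whose product speeds the switching off of G proteins in striatal neurons, the high mice had 147, 174, 208, 198 and 141 CPM and the low mice 116, 94.1, 61.3, 20.4 and 7.52 CPM. Syndig1l, a gene of the synapse differentiation inducing family, had 187, 185, 192, 201 and 114 CPM in the high mice and 86.0, 54.8, 62.5, 20.6 and 8.20 CPM in the low mice, and its high mouse 12 lay well under the other high mice.

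Bcl11b and Foxp1, transcription factor genes that other forebrain neurons also use, differed less, with log2 ratios of 0.93 each. Bcl11b was at 507, 466, 528, 619.7 and 522 CPM in the high mice and at 408, 372, 284, 104 and 214 CPM in the low mice. Here mouse 1 and not mouse 2 was the lowest, which sets Bcl11b apart from the signalling genes above. Scn4b, a sodium channel subunit gene, had a larger ratio than most genes of the list (1.59) but overlapped, because low mouse 3 (192 CPM) lay above high mice 6 (176 CPM) and 12 (167 CPM). Adcy5 and Gnal, the adenylyl cyclase and G protein that act downstream of Drd1 and Adora2a, had ratios of 0.75 and 0.76 and also overlapped. In Kcnip2 and Meis2, genes that many neurons outside the striatum express, the ratios were 0.61 and 0.59.

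**Figure D2:**
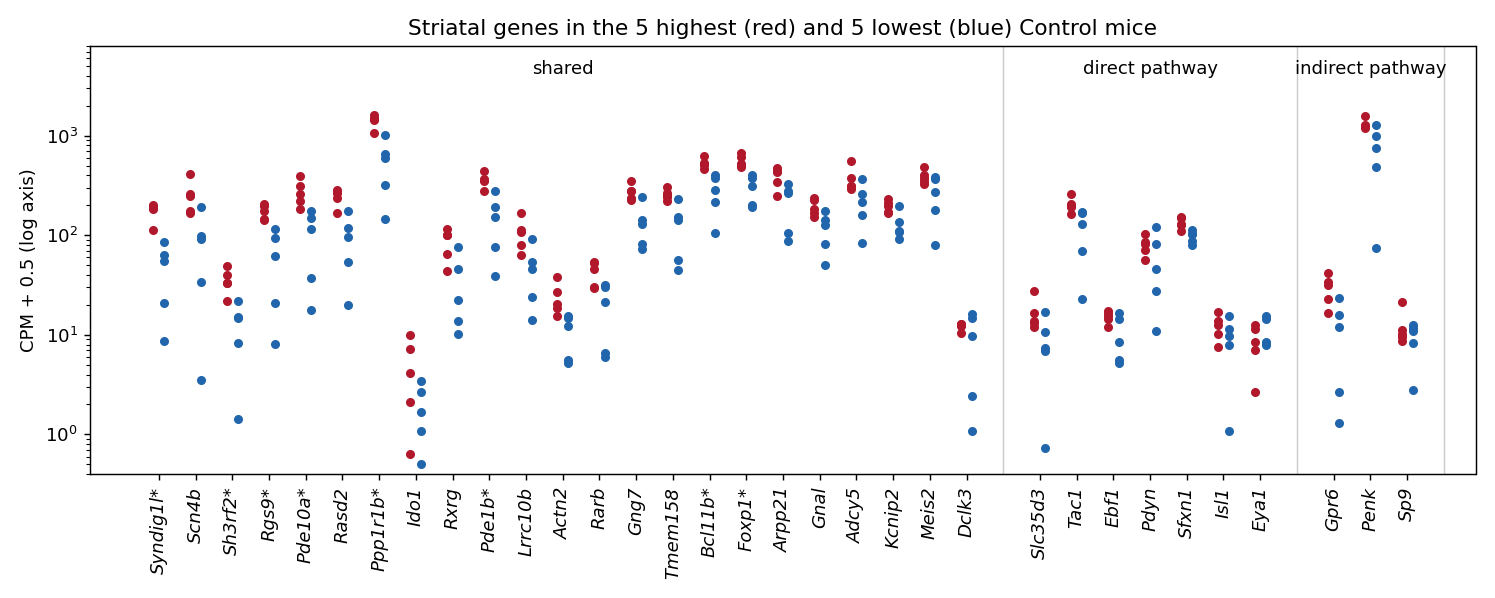
Each point is 1 mouse, with the CPM of the gene plus 0.5 on a log axis, for genes of the 3 striatal lists above the filter, high Control mice in red and low Control mice in blue. An asterisk marks shared genes without overlap, the shared genes are ordered by their ratio from Syndig1l (log2 1.91) to Dclk3 (0.47), and the lowest blue points are mostly mice 1 and 2.

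The start regions of a gene of the rule and of genes that moved with it are shown because these genes varied together across punches. Each holds 250 bases before and 50 bases after a start, as RefSeq gives it on GRCm38.p6, with matches to the searched motifs in capitals. For Drd1 it is chr13:54055609-54055908 on the minus strand, for Pde10a chr17:8801495-8801794 on the plus strand and for Rgs9 chr11:109298132-109298431 on the minus strand.
Drd1: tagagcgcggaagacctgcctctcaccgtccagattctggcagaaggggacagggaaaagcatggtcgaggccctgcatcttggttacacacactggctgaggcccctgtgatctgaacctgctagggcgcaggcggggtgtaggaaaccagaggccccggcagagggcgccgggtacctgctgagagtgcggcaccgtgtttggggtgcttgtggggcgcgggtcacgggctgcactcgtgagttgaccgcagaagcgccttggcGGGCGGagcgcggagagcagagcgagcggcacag
Pde10a: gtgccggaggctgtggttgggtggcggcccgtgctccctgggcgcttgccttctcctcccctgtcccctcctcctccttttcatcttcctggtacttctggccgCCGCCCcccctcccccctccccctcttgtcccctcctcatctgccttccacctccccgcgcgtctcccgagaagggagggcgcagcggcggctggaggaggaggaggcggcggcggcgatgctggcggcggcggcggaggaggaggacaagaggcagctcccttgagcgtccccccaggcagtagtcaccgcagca
Rgs9: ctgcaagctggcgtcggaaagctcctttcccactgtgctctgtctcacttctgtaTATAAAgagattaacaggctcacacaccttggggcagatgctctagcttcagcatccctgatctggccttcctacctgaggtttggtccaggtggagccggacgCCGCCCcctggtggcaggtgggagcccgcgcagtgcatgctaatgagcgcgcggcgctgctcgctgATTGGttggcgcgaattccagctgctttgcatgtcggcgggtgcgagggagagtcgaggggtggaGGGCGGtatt
The motifs were searched on both strands of all 32851 start regions of this length. TATAAA occurs in 13.6% of them, TGACGTCA in 1.79%, GGGCGG in 35.7%, CCAAT in 37.4%, GCGTGGGCG in 0.612% and TAATTA in 5.29%. The Drd1, Pde10a and Rgs9 regions share GGGCGG, a frequent motif of GC-rich starts, found in Pde10a as its reverse complement CCGCCC and in Rgs9 in both forms. Rgs9 also holds TATAAA, and CCAAT as its reverse complement ATTGG. The table held 17 of the 26 shared striatal and rule genes, and Adora2a and Ppp1r1b had no entry.

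Genes of the separate striatal pathways followed Drd1 and Adora2a less closely. In the direct pathway list 7 of 8 genes passed the filter, none was without overlap and the median log2 ratio was 0.47, with 6 positive (TMM scaling made Tac1 the 1 gene without overlap). Tac1, the substance P precursor gene, was at 263, 195, 207, 191 and 164 CPM in the high mice and at 166, 169.6, 131, 69.9 and 22.2 CPM in the low mice. Only the lowest high mouse, 12, lay within the range of the low mice. Pdyn, the dynorphin precursor gene, was at 70.4, 84.5, 104, 56.5 and 81.3 CPM in the high mice and at 121, 81.8, 45.6, 27.0 and 10.48 CPM in the low mice, so low mouse 3 had more than any high mouse. Eya1 was the member with a lower mean in the high mice (log2 -0.37).

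In the indirect pathway list 3 genes passed the filter, all had a higher mean in the high mice and none was without overlap, with a median log2 ratio of 0.87. Penk, the enkephalin precursor gene, was at 1277, 1256, 1591, 1262 and 1206 CPM in the high mice and at 1283, 996.5, 762.3, 482 and 74.0 CPM in the low mice. Low mouse 3 lay among the high mice for Penk, and the decline was carried by the other 4 low mice. Gpr6, a receptor gene of indirect pathway neurons, was at 33.2, 22.5, 41.9, 31.4 and 16.2 CPM in the high mice and at 23.2, 11.4, 15.2, 2.19 and 0.81 CPM in the low mice. Drd2 and Chrm4, both defining receptor genes, did not pass the filter. Drd2 had at most 8 reads in a high mouse and 1 read in a low mouse, and Chrm4 at most 1 read in any Control mouse, so that the label of striatal signal rests on the other markers. Whether 3′ reads of Drd2 and Chrm4 were lost in counting was not tested, and their low reads are not read as absent expression.

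Among genes of any kind without overlap and with a mean of at least 5 CPM over the Control mice, 110 were higher and 397 were lower in the high mice. Both counts are by file totals, and all genes at this level were not counted beside them. The excess of lower genes is not read as a result, since over all genes TMM scaling changed 136 higher and 488 lower to 303 and 264. The 10 with the largest ratios included Syndig1l, Sh3rf2, Rgs9 and Pde10a of the shared list. The other 6 were Acvrl1 (log2 1.65), a TGF-beta family receptor gene of endothelium, Itga9 (1.59), an integrin subunit gene, Gprin3 (1.497), Epyc (1.49), which encodes a matrix proteoglycan, Syt6 (1.48), a synaptotagmin gene, and Nexn (1.47), which encodes an actin-binding protein. Gprin3 was at 52.7, 35.8, 36.1, 60.2 and 41.1 CPM in the high mice and at 19.2, 23.9, 22.1, 8.88 and 4.38 CPM in the low mice. Nexn was at 111, 67.7, 105, 116 and 66.1 CPM in the high mice and at 62.6, 39.2, 36.2, 22.1 and 6.22 CPM in the low mice. As in the striatal list, mice 1 and 2 were the lowest for both genes.

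At the other end, the 10 genes with the smallest ratios were Slc13a4 (log2 -2.96), Prelp (-2.80), Clic6 (-2.33), Pcdh20 (-2.13), Fam19a1 (-1.999), Tgfb2 (-1.98), Bhlhe22 (-1.91), Cpne6 (-1.80), Crym (-1.76) and Cab39l (-1.71). Slc13a4, a sulfate transporter gene, was at 1.07, 0.70, 3.64, 1.11 and 2.27 CPM in the high mice and at 3.80, 10.2, 20.3, 26.4 and 24.7 CPM in the low mice. Low mouse 3 was only just above high mouse 4. Prelp, which encodes a matrix proteoglycan, was at 1.44, 3.13, 2.43, 1.16 and 2.74 CPM in the high mice and at 7.24, 14.7, 18.9, 21.2 and 28.6 CPM in the low mice. Clic6, a chloride channel gene abundant in choroid plexus, was lower without overlap by file totals but overlapped under TMM scaling.

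The choroid plexus list, the secretory epithelium of the ventricles, had the lowest median log2 ratio of the lists, -2.86 (TMM -2.73), with 7 of 7 genes above the filter lower on average and 1, Clic6, without overlap. Ttr, which encodes the thyroxine carrier of the cerebrospinal fluid, was at 229, 69.0, 34.1, 83.6 and 318 CPM in the high mice and at 14.2, 2158, 4282, 6842 and 9370 CPM in the low mice. The low mice thus fell apart, 4 of them far above every high mouse and mouse 3 under every high mouse. Folr1 followed the same order among the low mice, with 0 to 1.37 CPM in the high mice and 0.28, 10.4, 21.05, 43.5 and 60.6 CPM in the low mice. For Folr1 mouse 3 lay within the range of the high mice. Otx2, a transcription factor gene of this epithelium, was at 0.29 to 2.33 CPM in the high mice and at 0.14, 11.3, 19.7, 57.1 and 39.2 CPM in the low mice. The ependymal list had a median of -2.09 with 4 of 4 genes lower, and its gene Tmem212 was at 0 in all 5 high mice and in low mouse 3. The part of the choroid plexus and ependymal signal in the differences of other genes between the Control mice was not tested.

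Hippocampal, thalamic and myelin genes were also higher in part of the low mice, and not in the same ones for every list. The hippocampal list had 6 genes above the filter, all lower in the high mice, with a median of -1.42. Fibcd1, a gene of CA1 pyramidal neurons, was at 6.50, 7.88, 4.14, 7.24 and 5.08 CPM in the high mice and at 2.92, 6.62, 3.78, 3.23 and 88.4 CPM in the low mice, so that mouse 2 alone set its ratio. Spink8, also of CA1 neurons, was at 0.96 to 3.13 CPM in the high mice and at 18.2, 3.77, 2.83, 10.03 and 44.6 CPM in the low mice. Prox1, a marker of dentate granule cells, was at 28.3 to 42.4 CPM in the high mice and at 19.3, 61.7, 17.4, 115 and 154 CPM in the low mice. The thalamic list had a median of -1.03 over 8 genes, with Rgs16 at 18.9 CPM in mouse 1 against 0.60 to 2.92 CPM in the other 9 mice. Tcf7l2, a transcription factor gene of thalamic neurons that oligodendrocytes also use, was at 93.2 CPM in mouse 1 and at 10.3 to 28.0 CPM in the others.

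For the 10 genes of the myelinating oligodendrocyte list the median was -0.57 and none was without overlap. Summed over the list, the high mice had 3533, 2216, 4222, 4093 and 1594 CPM and the low mice 2565, 6271, 3526, 10461 and 1855 CPM. Mice 13 and 1 lay above every high mouse, and low mice 3, 15 and 2 lay within their range. Oligodendrocyte precursor genes had a median of -0.14, which TMM scaling moved to 0.01.

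**Figure D3:**
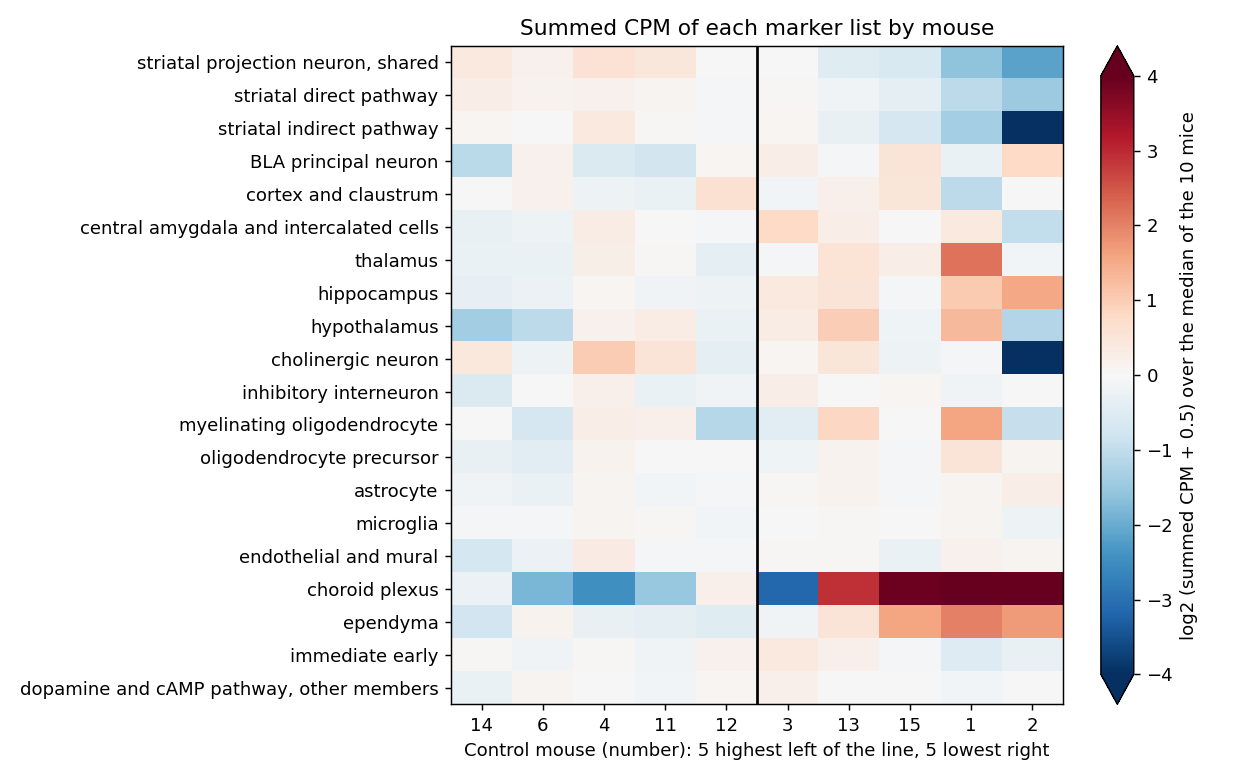
Colour gives, for each marker list (row) and Control mouse (column), the log2 of the summed CPM plus 0.5 over the median of the 10 mice, with the high mice left of the black line, and values beyond 4 in either direction take the end colours. The choroid plexus sum was 32.9 CPM in mouse 3 against 2232 to 9654 CPM in the other 4 low mice, the thalamic sum peaked in mouse 1 (298 CPM) and the hippocampal sum in mouse 2 (981 CPM).

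The principal neurons of the BLA are glutamatergic, and their list had a median log2 ratio of -0.64, with 7 of 9 genes lower in the high mice and none without overlap. Summed over the list, the high mice had 311, 749.6, 440.1, 395 and 695 CPM and the low mice 788, 624, 940.1, 546 and 1143 CPM. All 10 mice thus had reads of the list, and whether these came from BLA neurons was not tested. Neurod6, a transcription factor gene of glutamatergic forebrain neurons, was at 13.6 to 41.6 CPM in the high mice and at 38.1, 43.8, 47.1, 94.0 and 145 CPM in the low mice. High mouse 12 (41.6 CPM) lay above low mouse 3, and every other high mouse lay under every low mouse. Neurod1 (log2 -2.27) and Neurod2 (-1.17) were also highest in mouse 2, at 27.3 and 134 CPM, and hippocampal neurons use these genes too. Tbr1 (0.09) and Lmo3 (0.02) had nearly equal means, so the list did not move as 1. Of 10 genes for the central amygdala and intercalated cells 9 were lower in the high mice, with a median of -0.89, and Dlk1 and Calcrl were lower without overlap under both scalings. Calcrl, a receptor component for calcitonin gene-related peptide that vessels also express, was at 1.08 to 1.86 CPM in the high mice and at 3.23 to 4.86 CPM in the low mice. The exception was Foxp2 (0.60), which striatal neurons also express.

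**Figure D4:**
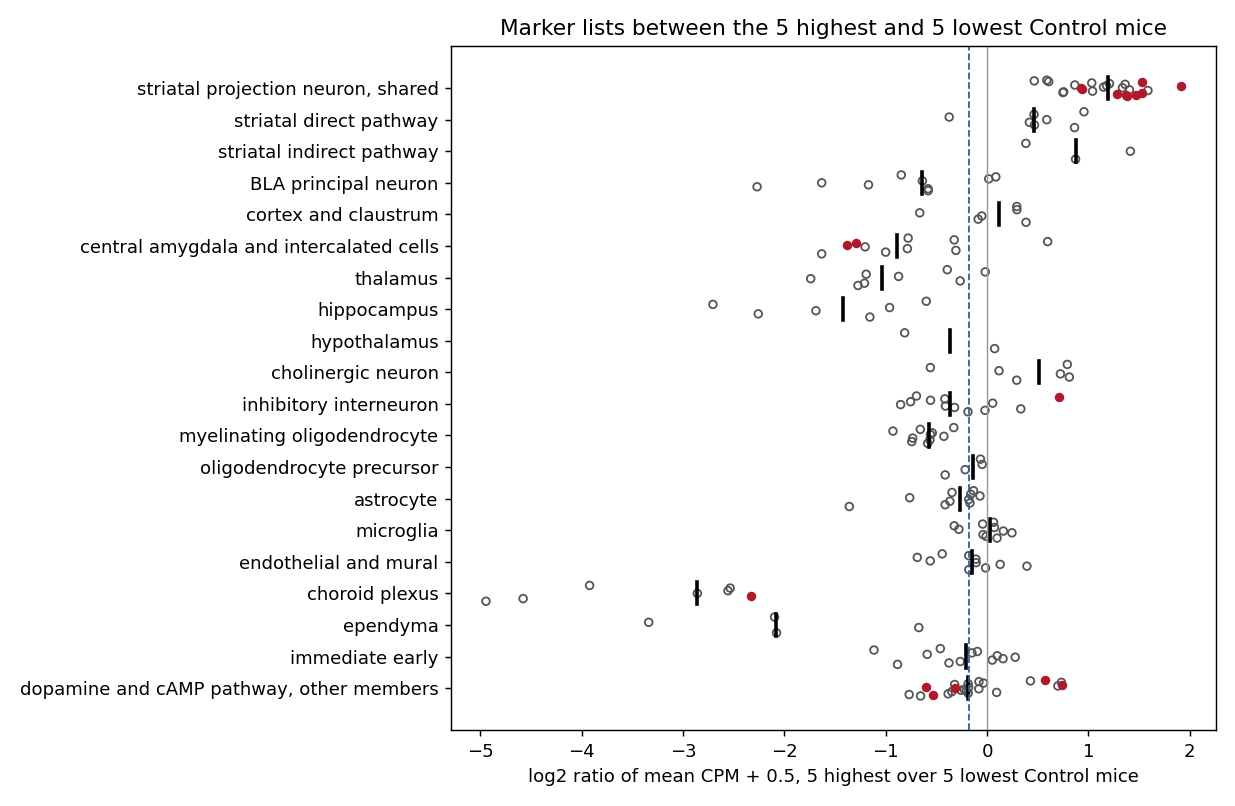
Each point is 1 gene of a marker list, placed by its log2 ratio of mean CPM plus 0.5 between the 5 highest and 5 lowest Control mice, with filled red points for genes without overlap, black bars for list medians and a dashed line at the median of all genes (-0.18). The shared striatal list lies at a median of 1.19 and the choroid plexus list at -2.86.

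Lists of other cells lay close to the median of all genes. Medians were -0.26 for astrocytes (10 genes), 0.03 for microglia (10 genes), -0.15 for endothelial and mural cells (10 genes), -0.37 for inhibitory interneurons (12 genes), 0.12 for cortex and claustrum (6 genes) and -0.21 for immediate early genes (12 genes), with only Reln among them without overlap. TMM scaling gave -0.08, 0.21, 0.01, -0.19, 0.28 and -0.04 for the same lists in the same order, turning the sign for endothelial and mural cells, and added C1qa to the genes without overlap. Reln, an extracellular matrix protein gene, was at 50.8, 56.7, 73.1, 71.6 and 46.8 CPM in the high mice and at 38.3, 32.1, 32.2, 37.1 and 42.5 CPM in the low mice. The hypothalamic list had 2 genes above the filter and a median of -0.37. Cholinergic neurons occur as striatal interneurons and in the neighbouring basal forebrain, and their 6 genes had a median of 0.51 with none without overlap. Slc5a7, the choline transporter gene, was at 21.3, 11.4, 26.7, 22.5 and 6.58 CPM in the high mice and at 10.99, 17.3, 9.71, 10.8 and 0.46 CPM in the low mice.

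Other members of the dopamine and cyclic AMP pathway did not move as 1. Of 26 genes 23 passed the filter, with a median log2 ratio of -0.19 (TMM -0.02), close to all genes. Pde2a (0.74), a cyclic nucleotide phosphodiesterase gene, and Ppp1ca (0.58), the catalytic subunit that DARPP-32 inhibits, were higher without overlap, and Gnas (-0.53), Prkar1a (-0.32) and Prkar2a (-0.60) were lower without overlap. Gnas encodes the general stimulatory G protein in whose place striatal neurons use Gnal, which differed in the opposite direction (0.76). Under TMM scaling Prkar2a was the 1 gene lower without overlap, and Prkar2b, a regulatory subunit gene of protein kinase A, joined Pde2a and Ppp1ca. Drd3 had no read in any of the 31 mice.

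Whether these genes follow Drd1 and Adora2a was tested in the CYFIP OE mice. A slope is the log2 change of a gene per doubling of the summed CPM of Drd1 and Adora2a, from edgeR's quasi-likelihood test with sex and line in the model, and p-values were adjusted by the Benjamini-Hochberg method over the 17426 genes. At an adjusted p under 0.05, 604 genes (3.47%) rose with the sum and 564 genes (3.24%) fell with it, and the median slope over all genes was 0.01. Without CYFIP OE mouse 1, 360 genes rose and 266 fell, of which 267 and 137 were among those found with all mice.

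Of the 24 shared striatal genes 23 rose with the sum and none fell, with a median slope of 0.91. Without CYFIP OE mouse 1 the count was again 23 with a median of 0.95, in line 1 alone (7 mice) it was 18 with 1.01, and in line 3 alone (8 mice) 23 with 0.87. With the summed choroid plexus level as a further covariate it was 23 with 0.88. The range ran from Kcnip2 (slope 0.28 ± 0.09 SE, edgeR adjusted p = 0.0845) to Scn4b (1.54 ± 0.11, adjusted p = 5.37e-08). Kcnip2 passed without CYFIP OE mouse 1 (0.69, edgeR adjusted p = 0.000287), and Dclk3 then no longer passed (0.42, edgeR adjusted p = 0.28). Pde10a had the smallest p of all genes, with a slope of 1.16 ± 0.07 (edgeR adjusted p = 3.52e-09) and levels from 12.8 through a median of 191 to 403 CPM. Ppp1r1b had a slope of 1.05 ± 0.07 (edgeR adjusted p = 2.23e-08). A slope of 1 means that a gene changed in proportion to the sum, and 10 of the 24 genes had a slope over 1.

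The genes that rose with the smallest p included, beside Pde10a, Ppp1r1b, Pde1b, Scn4b and Lrrc10b of the list, Pcp4 (0.86 ± 0.06, edgeR adjusted p = 7.04e-08), which encodes a calmodulin regulator, Strn (0.80), which encodes the scaffold protein striatin, Inf2 (0.85), a formin gene, and Dach1 (1.05), a transcription factor gene. In the Control mice Strn (log2 1.07) and Inf2 (1.02) were also higher without overlap, and Pcp4 (1.27) and Dach1 (1.56) overlapped. Of the direct pathway genes 4 of 7 rose (Pdyn, Isl1, Slc35d3 and Tac1, median slope 0.70), with Tac1 at 1.01 ± 0.09 (edgeR adjusted p = 6.28e-07). Without CYFIP OE mouse 1, 2 of the 7 rose (Slc35d3 and Tac1) and the median fell to 0.39. Penk (0.89 ± 0.12, edgeR adjusted p = 6.82e-05) and Gpr6 (1.44 ± 0.16, edgeR adjusted p = 9.67e-06) rose among the 3 indirect pathway genes, with and without CYFIP OE mouse 1.

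The BLA principal neuron list had a median slope of -0.69, and 3 of 9 fell with none rising. These were Lypd1 (-0.97 ± 0.17, edgeR adjusted p = 0.00157), Neurod2 (-0.98 ± 0.23, edgeR adjusted p = 0.0131) and Slc17a7, the vesicular glutamate transporter gene (-0.95 ± 0.26, edgeR adjusted p = 0.0289). Without CYFIP OE mouse 1 the median was -0.93 and Lypd1 alone passed (-1.47, edgeR adjusted p = 2.19e-06). Of the 7 choroid plexus genes 1 fell (Aqp1, a water channel gene, -1.11, edgeR adjusted p = 0.0415), and none without CYFIP OE mouse 1 (edgeR adjusted p = 0.495 for Aqp1). Ttr had a slope of -0.89 ± 0.43 (edgeR adjusted p = 0.252), with 21.0 through 402 to 3461 CPM over the CYFIP OE mice. Among 4 ependymal genes Tmem212 fell, with and without that mouse.

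The hippocampal count depended on CYFIP OE mouse 1. Of 6 genes 3 fell (Fibcd1, C1ql2 and Spink8). Fibcd1 had a slope of -0.76 (edgeR adjusted p = 0.0284) with all mice and of 0.64 (edgeR adjusted p = 0.0395) without CYFIP OE mouse 1, a change of sign. Its levels in the CYFIP OE mice ran from 3.13 through 6.62 to 90.9 CPM. Without that mouse Spink8 was the 1 hippocampal gene that fell.

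Among the other lists, 4 of 6 cholinergic genes rose (Chat, Slc5a7, Lhx8 and Slc18a3, median slope 1.09), of which Slc5a7 alone passed without CYFIP OE mouse 1. Slc32a1, Reln and Gad1 rose among the 12 interneuron genes, and Reln did so also without that mouse, where Sst fell. For cortex and claustrum Lamp5 rose and Fezf2 fell of 6 genes, and neither passed without that mouse. Foxp2 alone rose among the 10 central amygdala genes (0.55 ± 0.10, edgeR adjusted p = 0.00122), with an edgeR adjusted p of 0.0708 without that mouse, where Cartpt fell. None of the 8 thalamic (median 0.21), 10 myelin (0.41), 4 precursor (-0.05), 10 astrocyte (-0.01), 10 endothelial and mural (0.09) or 2 hypothalamic genes (0.12) passed. For myelin the median was thus positive in the CYFIP OE mice, where that of the Control mice was negative. Without CYFIP OE mouse 1, Slc17a6 fell among the thalamic genes. C1qc and Ctss of 10 microglial genes and Egr1 of 12 immediate early genes rose, and none of these lists had a gene that passed without that mouse. In the dopamine and cyclic AMP list 5 of 23 rose (Prkar2b, Pde7b, Ppp1r1a, Pde4b and Ppp1ca) and 2 fell (Prkar1b and Gnas, the latter by 0.46 ± 0.07 on the log2 scale, edgeR adjusted p = 0.000662). Without that mouse Pde7b, Ppp1ca and Pde2a rose and the same 2 fell.

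The genes that fell with the smallest p were Ly6h (-0.69 ± 0.07, edgeR adjusted p = 1.81e-06), Tgfb2 (-0.71), Wdr6 (-0.69), Sertm1 (-1.01), Shank1 (-0.61), Chl1 (-0.61), Pde11a (-1.02), St6galnac5 (-0.70), Dgkg (-0.60) and Slit1 (-0.96). Pde11a did not pass without CYFIP OE mouse 1 (-0.58, edgeR adjusted p = 0.158), and the other genes named here still did. Ly6h encodes a modulator of nicotinic receptors, Shank1 a scaffold of excitatory synapses and Slit1 an axon guidance cue. Tgfb2 and St6galnac5 were also lower without overlap in the high Control mice, with log2 ratios of -1.98 and -1.16, and Tgfb2, a growth factor gene, was at 9.25 to 14.3 CPM in the high mice and 22.4 to 109 CPM in the low mice. Ly6h had a ratio of only -0.20, close to the median of all genes.

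The genes without overlap in the Control mice were then counted in the CYFIP OE test, which shares no mouse with them. Of the 136 genes higher in the high mice 73 rose with the sum (53.7% of these genes, 12.1% of those that rose, against 3.47% of all genes) and 0 fell. Of the 488 lower genes 52 fell (10.7% of these genes, 9.22% of those that fell, against 3.24% of all genes) and 1 rose. The Control genes were called by file totals and the slopes used TMM scaling, under which 303 Control genes were higher and 264 lower. The overlap of those genes with the slopes was not counted, so the shares of the higher and lower genes are not compared with each other. Without CYFIP OE mouse 1 the counts were 81 of 136 (59.6%, against 2.07% of all genes) and 67 of 488 (13.7%, against 1.53%). Across all 17426 genes the ratio in the Control mice and the slope in the CYFIP OE mice had a Pearson's r of 0.29 and a Spearman's rho of 0.19, a description over genes that share libraries and are not independent. Of the 10 genes with the largest ratios 9 rose, and Acvrl1 did not (0.42, edgeR adjusted p = 0.141) unless CYFIP OE mouse 1 was left out (1.27, edgeR adjusted p = 0.000127). Of the 10 with the smallest ratios 7 fell, and Slc13a4 (edgeR adjusted p = 0.157), Clic6 (0.863) and Cab39l (0.266) did not pass. Prelp (-0.71, edgeR adjusted p = 0.107) and Crym (-0.10, edgeR adjusted p = 0.814) no longer passed when CYFIP OE mouse 1 was left out.

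**Figure D5:**
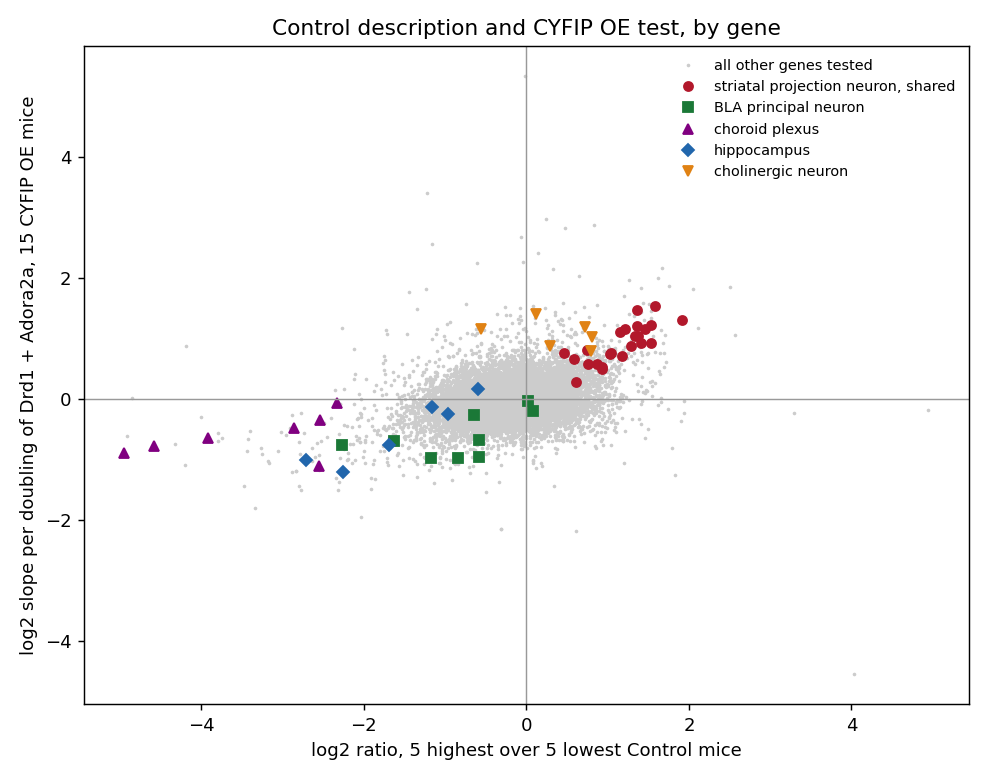
Each point is 1 gene, with the log2 ratio between the 5 highest and 5 lowest Control mice across and the log2 slope per doubling of Drd1 plus Adora2a over the 15 CYFIP OE mice upward, and 5 marker lists in colour. The shared striatal genes lie at the upper right (ratios 0.47 to 1.91, slopes 0.28 to 1.54), and the choroid plexus genes lie far to the left with slopes from -1.11 to -0.06.

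The slopes of the lines of the CYFIP OE mice were compared with an interaction term. At an adjusted p under 0.05 they differed for 1 of 17426 genes, Mgll, a lipase gene named after its value was seen (line 3 minus line 1 -0.67, edgeR adjusted p = 0.0473). At an unadjusted p under 0.05 there were 2095 of the 17426 genes, a larger share than the threshold of 0.05 gives by itself. With 7 mice of line 1 and 8 of line 3, genes that did not pass adjustment are not read as having equal slopes.

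The summed level of Drd1 and Adora2a itself was compared between labelled groups, with p-values adjusted over 3 comparisons. It was 236 ± 139 CPM (SD, n = 15) in CYFIP OE and 234 ± 94.5 CPM (SD, n = 16) in Control mice (difference 2.10 CPM, permutation test, two-sided, p = 0.958, adjusted p = 0.958). Control males and females differed by 8.88 CPM (238 ± 85.8 and 229 ± 108 CPM, SD, n = 8 each, exact permutation test, p = 0.864, adjusted p = 0.958). In Control mice the sum was 283 ± 31.2 CPM in line 1 and 185 ± 113 CPM in line 3 (SD, n = 8 each), a difference of 97.7 CPM (exact permutation test, p = 0.0331) that did not pass adjustment (adjusted p = 0.0993) and had a p of 0.0973 under TMM scaling by the same exact test. All 5 low mice were of line 3, as were all mice named X424, so line and name cannot be told apart for mice 1, 2 and 3. Of the 8 Control mice of line 1, 7 were named X426, with sums of 226 to 320.5 CPM. The SD of line 1 is thus nearly that of a single name group, and the exact test took its mice as independent. Line and name cannot be told apart there either.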

How the data were processed

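BLA punches of 31 mice were sequenced by QuantSeq. The authors aligned reads to GRCm38 (STAR), used Salmon for quantification and deposited expected counts per gene and mouse, estimated counts that are neither normalized nor filtered. Each table lists 48709 genes, of which the GENCODE annotation of GRCm38 named 48349. Library totals ranged from 5286925 to 8685521 reads (median 7387798), which limits genes with few reads.

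Expected counts were rounded to whole numbers for tests, and a gene was kept if 20% or more of the mice had 10 or more reads (17428 genes). CPM used file totals. Genes were called without overlap where the lowest of 5 mice exceeded the highest of the other 5. Slopes came from edgeR 4.0.16 in R 4.3.3 (TMM, quasi-likelihood F test, two-sided), with DESeq2 1.42.0 as an alternative, and other values from Python 3.11.15, numpy 2.4.6, scipy 1.17.1 and pandas 2.3.3. Permutation tests were exact for groups under 10 mice and drew 100000 resamples for genotype. In counts simulated for 17428 genes over the CYFIP OE mice, 197 of 200 genes with a true slope of 0.5 were recovered with 11 false calls. Recovery at slopes of another size, or with a mouse that stands apart from the others, was not tested.

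The mice, the ranking and the 20 marker lists were chosen with earlier results of these data known. Genes were named by rule: the striatal list members, the 4 members of each other list with the largest ratio, the 10 genes at each end of the Control ratios (at least 5 CPM) and the 10 with the smallest p in each direction over the CYFIP OE mice. Other genes named beside a count were chosen after their values were seen. Each mouse was 1 replicate, and its group, sex, line and age came from the labels. Connectivity Z-scores were recomputed from these counts. Some genes are counted in their lists but not reported one by one here.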

Additional observations from a re-analysis of the deposited data

Results flagged for a closer look

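A group of 5 mice here is a gene or list in the high or in the low Control mice. Of 148 such groups, 13 held a mouse set apart by Dixon's ratio. Its cut-off is passed by about 1 in 20 groups when values are independent draws. These mice were chosen by rank and many genes by their ratio, and some genes are counted again in their list sum. The 13 groups are therefore a description, and their number cannot be set against that rate. Low mouse 2 was set apart with the highest level of Neurod1 (27.3 CPM), Neurod2 (134 CPM), Fibcd1 (88.4 CPM), Bhlhe22 (75.0 CPM), Cpne6 (476 CPM) and Crym (314 CPM). Low mouse 1 was set apart for Prkcd (83.6 CPM), Rgs16 (18.9 CPM), Tcf7l2 (93.2 CPM) and the thalamic list sum (297.9 CPM). High mouse 4 was set apart for Penk (1591 CPM) and the indirect pathway list sum (1654 CPM), and high mouse 12 by its low Syndig1l (114 CPM).

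The genotype difference in the sum of Drd1 and Adora2a differed between the lines, by 216.1 CPM (line 3 minus line 1). In line 1 CYFIP OE mice had 173 CPM against 283 CPM in Control mice, a difference of -109.9 CPM (7 against 8 mice, exact permutation test, two-sided, p = 0.0106, adjusted over genotype and sex within the line 0.0211). In line 3 they had 291 CPM against 185 CPM, a difference of 106.2 CPM (8 against 8, exact p = 0.134, adjusted p = 0.268). The line 3 difference was 143.8 CPM without CYFIP OE mouse 1 (7 against 8, exact p = 0.0323, adjusted p = 0.0646). Within the 4 name prefixes of line 3, each with both genotypes, the difference was 62.4 CPM (8 against 8 mice, exact p = 0.344). Leaving out CYFIP OE mouse 1 also removed the Control mice named X424, since that prefix then held 1 genotype. The 3 prefixes left gave 99.6 CPM (7 against 5 mice, exact p = 0.207). Relabelling genotype within each line gave an exact p of 0.00794 for the difference between the lines. Such relabelling is exact for no genotype difference in either line, and not for an equal difference in both. This test and those within prefixes were added after the values were seen. The difference between the lines was 191.5 CPM (exact p = 0.0317) without the 4 CYFIP OE mice aged 77 days, all of line 1, 221.1 CPM (exact p = 0.0119) under TMM scaling and 253.7 CPM (exact p = 0.0011) without CYFIP OE mouse 1. Without the 77-day mice the line 1 difference was -85.3 CPM (3 against 8, exact p = 0.158). Name prefixes differ between the genotypes of line 1 except for 1 pair of mice, so genotype and name group cannot be told apart there.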

How the results depend on the processing

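Counts of genes without overlap depend on the mice compared and on the scaling. Against 136 higher and 488 lower, they were 303 and 264 with TMM scaling, 372 and 1367 with 4 against 4 mice, 9 and 3 with 8 against 8, 455 and 2705 in line 3 alone (2 against 5) and 650 and 1752 without the 3 mice named X424 (5 against 2), the last pair of settings chosen after the data were seen. Fewer mice per side give more genes without overlap by construction. Ranking by Adora2a alone gave 71 higher. Leaving out 1 mouse gave 166 to 277 higher and 515 to 1406 lower genes, with 1406 lower without mouse 4, 938 lower and 277 higher without mouse 3, 834 and 215 without mouse 12, 763 lower without mouse 15 and 213 higher without mouse 14. The median ratio of the shared striatal list, 1.19 in the main setting, stayed positive in all of these settings. It ran from 0.71 with 8 against 8 mice to 1.58 with 4 against 4. These moves were smaller than the pooled SD between mice, 0.91, which is itself wide beside the ratio.

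In the CYFIP OE mice, against 604 rising and 564 falling genes, the counts were 360 and 266 without mouse 1, 258 and 237 without the 2 mice farthest from the median of the sum, and 80 and 25 in line 1 alone. Falling genes numbered 965 without covariates and 290 with the choroid plexus level as a covariate (added after the data were seen), and DESeq2 called 923 rising. The cause of these changes was not tested. The median slope of the shared striatal list was 1.01 in line 1 alone, 0.80 with Drd1 and 1.00 with Adora2a as the predictor. The slope of Fibcd1 changed sign, to 0.64 without mouse 1, 0.80 without the 2 farthest mice and 0.53 in line 1 alone. For at most 34 named genes per setting, each counted once in every setting, 443 slopes kept their direction and side of the threshold. Of these gene and setting pairs 27 no longer passed and 3 reversed. Without mouse 1 alone, 4 of the 34 no longer passed and 1 reversed. Other named genes are not in these counts, and many of them also no longer passed without mouse 1, as given with their lists above. Of the label comparisons, males minus females turned to -4.30 CPM with TMM scaling and to -7.09 CPM within line 3, and CYFIP OE minus Control to -109.9 CPM within line 1. Within the 5 name prefixes that hold both genotypes (9 against 9 mice, a comparison added after the data were seen), CYFIP OE minus Control was 22.4 CPM (exact permutation test, two-sided, p = 0.748). Beyond these prefixes no pairing of single mice was possible, because the labels give no replicate numbers, and mice were numbered in accession order.

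Line and name prefix limit what the high and low mice can show, since no low mouse was of line 1. Drd2, Chrm4 and other genes of few reads could not be compared, and the cause of their low reads was not tested.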
